A study of Mus musculus with 88 samples.

Results

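The 45 genes described here encode the core proteins that copy the genome in S phase. They were taken by symbol from both tables of transcript abundance, in which all 45 were found among 55364 genes, and all 45 passed the filter on low values in both. Replication begins where the origin recognition complex (Orc1 to Orc6) sits on DNA and, with Cdc6 and Cdt1, loads the ring of Mcm2 to Mcm7, a step called licensing that geminin (Gmnn) blocks outside its proper time. Cdc45, the GINS complex (Gins1 to Gins4) and Mcm10 then turn the loaded ring into the active helicase, and polymerases alpha, delta and epsilon copy the strands with the sliding clamp Pcna, its loader (Rfc1 to Rfc5), the single-strand binding protein RPA, the flap nuclease Fen1 and the ligase Lig1. Rrm1, Rrm2, Tyms and Tk1 supply the nucleotides. Many of these genes are transcribed under E2F factors at the G1 to S transition, and in early embryos much of their mRNA is laid down in the oocyte.

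Total RNA was sequenced from wild-type mouse embryonic stem cells (mESCs) and wild-type late 2-cell embryos. The mESCs were male cells of the strain labelled hybrid C57BL/6 / 129, grown on gelatin with serum, LIF and inhibitors of MEK and GSK3, and transfected with plasmids. Groups of 2 libraries received an empty plasmid (ES_Empty) or a plasmid for 1 of 4 homeobox genes active in early embryos, Dux, Obox3, Obox5 and Obox6, and these groups are called ES_ and the name of the gene. Single libraries received Obox1, Obox2, Obox4ps27, Obox4ps35, Obox7, Obox8 or 1 of 3 Crxos constructs. Fertilised embryos of the cross BDF1 x BDF1 were made by intracytoplasmic sperm injection (ICSI_L2C). Cloned embryos of the strain BDF1 came from somatic cell nuclear transfer (SCNT), in which cumulus cell nuclei were put into enucleated oocytes, and were injected with mRNA for EGFP (SCNT_EGFP_L2C) or Obox3 (SCNT_Obox3_L2C) at 10 ng/µl, with 2 libraries in each embryo group. ES_Empty was the control for the plasmids, and SCNT_EGFP_L2C for the injected Obox3 mRNA.

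Levels are given as scaled TPM, that is, the deposited TPM (transcript abundance relative to a fixed total) divided by a factor that brings the typical gene to the same level in every library of a table. The factors ran from 0.434 to 1.31 over 19 mESC libraries, lowest in the ES_Dux pair, and from 0.868 to 1.22 over 6 embryo libraries. The scaling matters because the 10 most abundant genes of a library held 48.9 to 73.8% of all TPM in mESCs and 57.4 to 72.6% in embryos. The introduced gene was at 0 to 0.342 TPM in ES_Empty, and at 1550 to 1980 TPM for Duxf3 in ES_Dux, 933 to 971 TPM for Obox5 in ES_Obox5 and 1960 to 2030 TPM for Obox6 in ES_Obox6. Obox3 itself was at only 1.59 to 1.75 TPM in ES_Obox3. Its near-identical copies may split or lose its reads, which was not tested, so its level in these libraries is uncertain. Marker levels are given throughout as deposited TPM, not divided by the factors. The summed TPM of 6 mESC markers was 1009 to 1189 in ES_Empty, 334 to 360 in ES_Dux, 376 to 523 in ES_Obox3, 517 to 524 in ES_Obox5 and 550 to 675 in ES_Obox6. The factors were 0.4342 and 0.4619 in ES_Dux and 1.315 and 1.13 in ES_Empty. They were 0.9384 and 0.6465 in ES_Obox3, 1.01 and 0.9288 in ES_Obox5, and 1.089 and 0.9592 in ES_Obox6. Once divided by them, the mESC sums of ES_Dux still lie below those of ES_Empty, with a much smaller gap. They then lie above those of ES_Obox3, ES_Obox5 and ES_Obox6, so the order of these groups depends on the scale. The 6 markers of 2-cell embryos, Duxf3 among them, summed to 3458 to 4106 TPM in ES_Dux and to at most 11.5 TPM in the other groups of 2 mESC libraries. Among 4 primitive endoderm markers, Gata4 had a mean of 19.9 TPM in ES_Obox3, 19.7 TPM in ES_Obox5 and 4.45 TPM in ES_Obox6 against 0.435 TPM in ES_Empty, and Gata6 of 1.25, 1.33 and 3.36 TPM against 0.11 TPM, while Sox17 and Pdgfra stayed under 1 TPM. Among 5 trophoblast markers Krt18 had means of 32.9, 34.6 and 57.7 TPM in these groups against 4.09 TPM in ES_Empty, and Krt8 of 21.7 TPM in ES_Obox6 against 6.2 TPM, while Cdx2, Elf5 and Krt7 stayed under 1 TPM. In the embryos 6 cumulus cell markers summed to 0.778 to 2.46 TPM and 5 fibroblast markers to 0.18 to 1.28 TPM. The part of these shifts in the results below was not tested. Nothing in the labels ties the 2 libraries of a group to separate cultures or embryo collections, so a p-value measures the spread between these libraries, which may be technical. Of the members, 20 overlap another annotated gene and the use of strand in counting is not given in the sources used here, so reads at Cdc45 (Ufd1), Lig1 (Zswim9), Pole2 (Klhdc1) and Rpa1 (Smyd4), among others, may belong in part to the neighbour, and Pcna and Tyms have named pseudogene copies. In bulk RNA, fewer cells of a type and less RNA per cell cannot be told apart.

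Promoter sequence was available from RefSeq (GRCm38.p6) for 37 of the 45 genes. An E2F-type match, here any of TTTCCCGC, TTTGGCGC, TTTCGCGC and TTTGCCGC on either strand in the 250 bases before the start of the first window listed for a gene, was found in 9 of the 37 (24.3%), against 1.91% of 27025 promoters: Cdc6, Gins3, Mcm5, Mcm6, Mcm7, Orc1, Orc3, Pola1 and Rfc3. The stretches of 30 bases below show it in the genes whose levels are followed most closely, with 1 match of each gene in capitals, 5′ to 3′. Mcm5 has 2 matches and Mcm6 has 3. A further match overlaps the capitals in each of these genes and is left in lower case, GCGCCAAA in Mcm5 and GCGCGAAA in Mcm6. The last match of Mcm6, which starts 47 bases before the start, is not shown. The stretches of Cdc6, Orc1 and Pola1 lie before the start of the window listed but inside the annotated span of their own gene. The window of Orc1 also overlaps the gene Prpf38a.
Cdc6 (chr11:98908002-98908031, plus strand): gccggtggagaGCGGGAAAtcgcctggggt
Gins3 (chr8:95633507-95633536, plus strand): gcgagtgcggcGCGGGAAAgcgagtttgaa
Mcm5 (chr8:75109345-75109374, plus strand): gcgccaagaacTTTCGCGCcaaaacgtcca
Mcm6 (chr1:128359797-128359826, minus strand): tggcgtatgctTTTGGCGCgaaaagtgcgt
Orc1 (chr4:108579416-108579445, plus strand): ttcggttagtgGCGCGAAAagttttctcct
Pola1 (chrX:93632275-93632304, minus strand): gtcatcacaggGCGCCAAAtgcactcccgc
The 2 whole windows of 250 bases that follow belong to Gins3 and Pold3, members of the mESC response described below whose windows lie in no other annotated gene. Capitals mark the E2F-type match and CCAAT, which is read on either strand and was found in 21 of 37 members (56.8%) and 34.46% of all promoters. Where every window listed for a gene was read, CCAAT was in 23 of 37 members (62.2%) and 37.49% of all genes, with Orc2 and Orc4 added, and the E2F-type match in the same 9 members and 2.16% of all genes. Gins3 has both kinds and Pold3 neither.
Gins3 promoter (chr8:95633309-95633558, plus strand): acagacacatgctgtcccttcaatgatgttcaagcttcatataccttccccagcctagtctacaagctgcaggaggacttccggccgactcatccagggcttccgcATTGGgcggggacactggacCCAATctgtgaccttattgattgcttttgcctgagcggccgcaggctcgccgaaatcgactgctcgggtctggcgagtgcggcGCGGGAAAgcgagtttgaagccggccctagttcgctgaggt
Pold3 promoter (chr7:100121503-100121752, minus strand): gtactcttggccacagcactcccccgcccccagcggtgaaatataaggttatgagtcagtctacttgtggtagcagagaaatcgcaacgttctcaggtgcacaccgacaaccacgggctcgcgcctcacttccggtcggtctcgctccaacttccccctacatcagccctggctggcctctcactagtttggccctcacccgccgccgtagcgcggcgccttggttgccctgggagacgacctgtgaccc
TAATCC, the core letters bound by homeodomains of the Crx and Otx type, was in 0 of 37 members and in 6.38% of all promoters. A match of letters is a description of these windows and no evidence of binding.

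The 45 genes spanned a narrower range of levels in mESCs than in late 2-cell embryos. In ES_Empty the means ran from 5.78 scaled TPM (Gins3) to 98.6 scaled TPM (Mcm3), with a median of 22.3. In ICSI_L2C they ran from 0.463 scaled TPM (Pold1, the catalytic subunit of polymerase delta) to 170 scaled TPM (Gmnn), with a median of 13.1. Among the embryo groups 14 genes were under 5 scaled TPM in ICSI_L2C, 8 in SCNT_EGFP_L2C and 7 in SCNT_Obox3_L2C. No gene was under that level in ES_Empty, but the 2 tables were normalised separately, so this is not set against the embryo counts. Only relations within a library are compared between the tables, without a test.

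**Figure D1:**
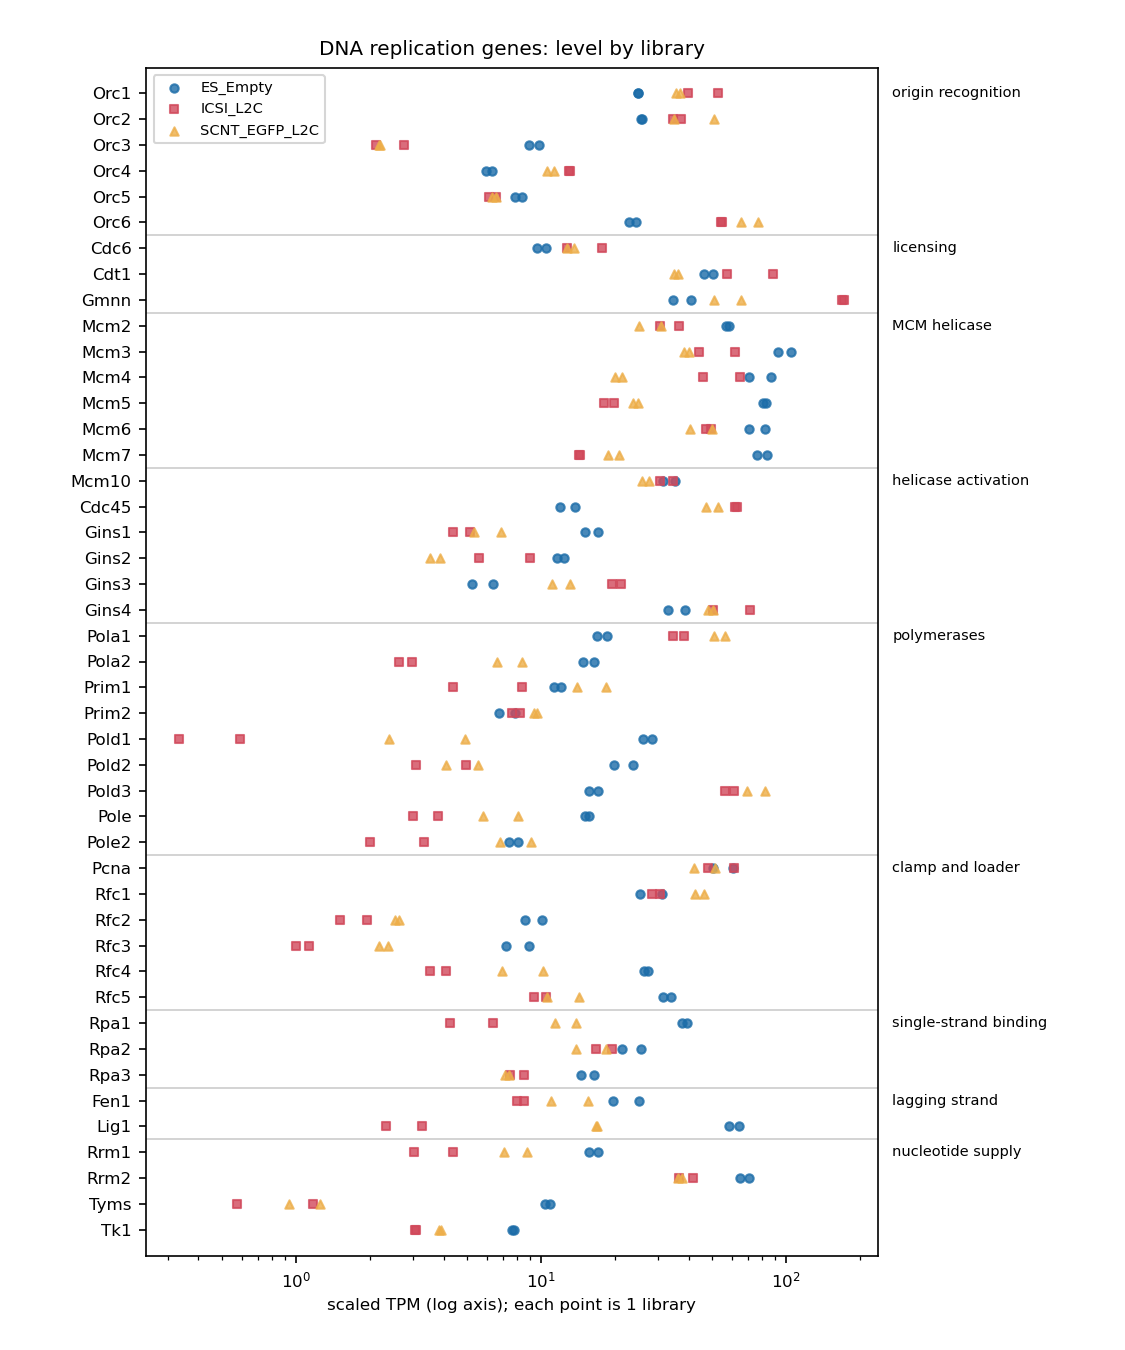
Scaled TPM on a log axis of all 45 DNA replication genes, ordered by role, with 1 point for each of the 2 libraries of ES_Empty, ICSI_L2C and SCNT_EGFP_L2C. The ES_Empty points lie between about 5 and 105, while the embryo points reach from Pold1 near 0.3 in ICSI_L2C to Gmnn near 170.

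Levels of several subunits that work together lay closer to each other in mESCs than in embryos. The most abundant of Mcm2 to Mcm7 exceeded the least abundant by 1.49 to 2.01 times in each of the 19 mESC libraries, and by 2.15 to 4.99 times in the 6 embryo libraries. Pold3, an accessory subunit of polymerase delta, stood at 0.362 to 1.6 times Pold1 in mESCs, and at 16.7 to 182 times Pold1 in embryos. Cdt1 mRNA exceeded that of its inhibitor Gmnn in every mESC library, with ratios of 1.13 to 1.92, and was below it in every embryo library, with ratios of 0.34 to 0.755. A level well above other subunits of the same complex in embryos was also seen for Pola1, which was 4.91 to 14.6 times Pola2 there and 0.936 to 1.55 times Pola2 in mESCs. Not all partners were level in mESCs: Rfc1 was 2.83 to 8.81 times Rfc3 and Rrm2 was 3.3 to 6.9 times Rrm1 there, against 19.5 to 48.5 and 4.29 to 13.7 times in embryos, and Pold3 reached 3.23 times Pold2 in ES_Obox3.

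Obox3 in mESCs went with higher levels of a few members spread over the steps of initiation and elongation. Cdc6, the loader of the MCM ring, was at 10.5 and 9.65 scaled TPM in ES_Empty and at 39.7 and 35.4 in ES_Obox3. Pold3 was at 17.1 and 15.7 scaled TPM in ES_Empty and at 59.6 and 56.5 in ES_Obox3. Both ES_Obox3 libraries thus stood above both controls, as they did for 18 of 45 members, while 12 lay below both. Here and below, such separation of 2 libraries from 2 was common among members. Its share over all genes is not given, so it is no support by itself. A gene was called at a limma adjusted p under 0.05 and at least a 2-fold change (log2 of 1). Cdc6 (chr11:98907709-98923942) rose by 1.80 (SE 0.11, adjusted p = 5e-05) and Pold3 (chr7:100082110-100121502) by 1.76 (SE 0.09, adjusted p = 3.44e-05) on the log2(scaled TPM + 1) scale.

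Orc6, the smallest ORC subunit, moved from 22.8 and 24.4 scaled TPM in ES_Empty to 52.0 and 48.2 in ES_Obox3, and Gins3 from 6.34 and 5.23 to 11.1 and 16.6. Orc6 rose by 1.06 (SE 0.16, adjusted p = 0.00276) and Gins3 by 1.11 (SE 0.21, adjusted p = 0.00812). In all, 4 of 45 members were called higher in ES_Obox3 than in ES_Empty (8.89%), against 8.18% of 20355 genes tested, and 0 were called lower, against 4.11%. The share of members called higher was therefore close to that of all genes. Cdc45, a partner of the ring in the active helicase, just missed the fold threshold: it was at 11.9 and 13.8 scaled TPM in ES_Empty and 28.7 and 24.6 in ES_Obox3, a difference of 1.00 (SE 0.10, adjusted p = 0.00054).

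Counting every member past the adjusted p without a minimum fold, 8 were higher and 3 lower in ES_Obox3, or 17.8% and 6.67%, against 14.5% and 10.1% of all genes. The further higher ones were Rfc1, the large clamp loader subunit (0.78, SE 0.11, adjusted p = 0.00172), Pold1 (0.50, SE 0.09, adjusted p = 0.00699) and Mcm2 (0.30, SE 0.07, adjusted p = 0.0218). The lower ones were Rfc5, a small clamp loader subunit (-0.67, SE 0.09, adjusted p = 0.00162), Rrm2, the regulated subunit of ribonucleotide reductase (-0.48, SE 0.08, adjusted p = 0.00518), and Mcm10 (-0.39, SE 0.09, adjusted p = 0.0173). Subunits of the clamp loader thus lay on both sides of the control. Rfc1 was at 50.8 and 47.4 scaled TPM in ES_Obox3 against 31.1 and 25.3 in ES_Empty, and Rfc5 at 20.8 and 19.5 against 33.8 and 31.6.

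**Figure D2:**
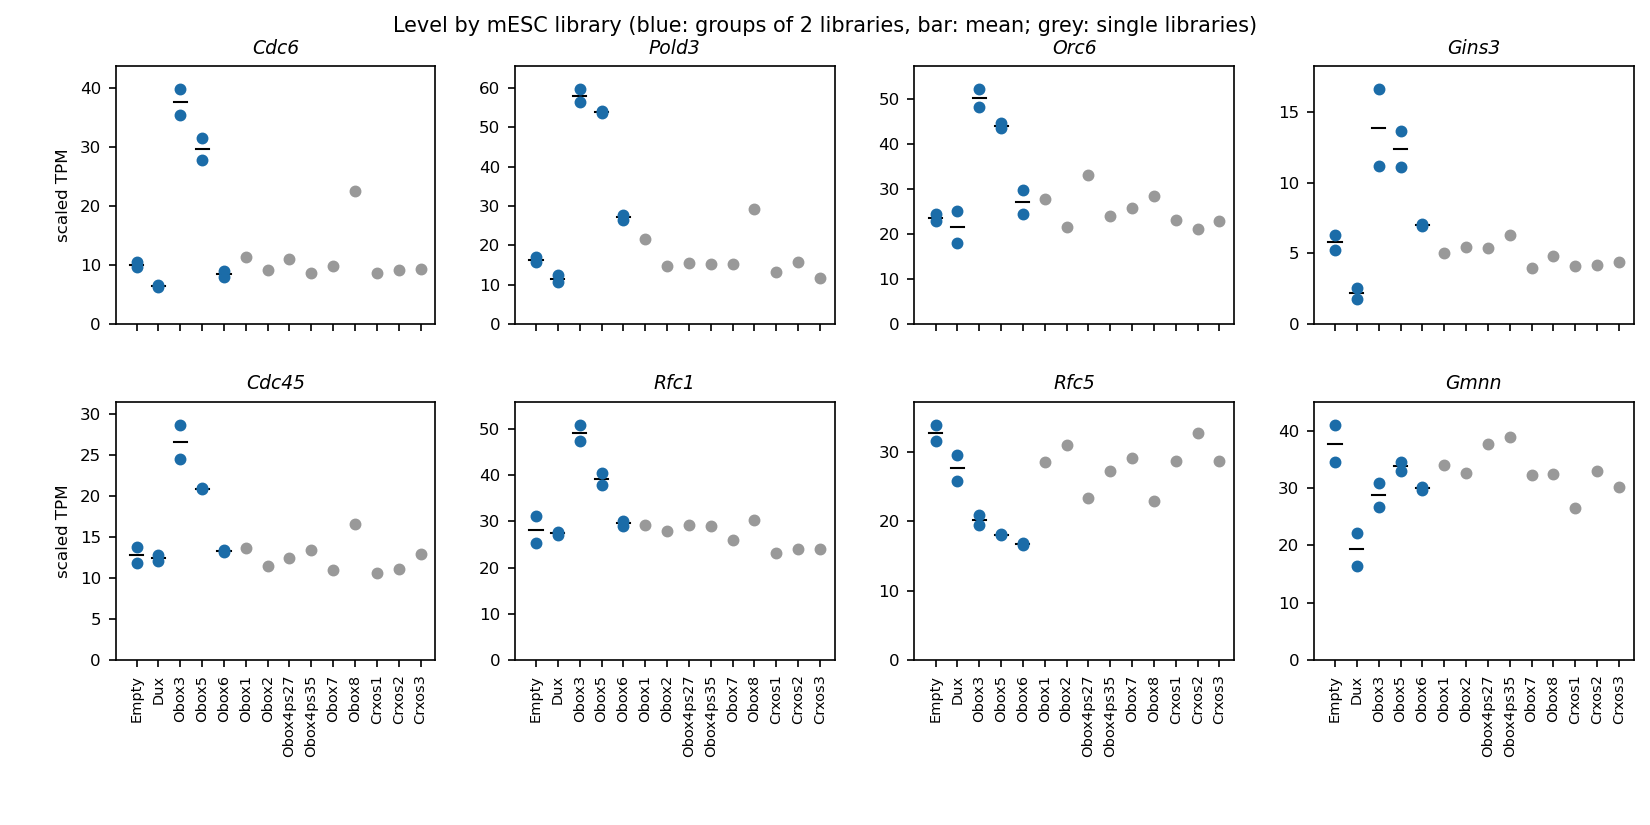
Scaled TPM of 8 members in every mESC library, with blue points for groups of 2 libraries, a black bar at their mean, and grey points for groups of 1 library. Cdc6, Pold3, Orc6, Gins3, Cdc45 and Rfc1 stand highest in ES_Obox3 and ES_Obox5, Rfc5 is lowest in ES_Obox6, and Gmnn is lowest in ES_Dux.

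The rest of the machinery stayed near the control in ES_Obox3. The median difference of the 45 members was 0.07, against 0.01 over all genes. Differences and 95% intervals were 0.12 (-0.08 to 0.33) for Mcm6, -0.08 (-0.29 to 0.12) for Mcm5, 0.17 (-0.20 to 0.54) for Orc1, -0.00 (-0.23 to 0.23) for Cdt1, -0.31 (-0.77 to 0.15) for Pcna and -0.38 (-0.73 to -0.02, adjusted p = 0.118) for Gmnn. Tyms (0.27, adjusted p = 0.107) and Tk1 (0.41, adjusted p = 0.111) did not pass. Of Mcm2 to Mcm7, 4 of 6 lay above 0 after scaling and 0 of 6 with TPM as deposited, so the ring has no direction that both scales share. As deposited, the members called were Cdc6 (1.19) and Pold3 (1.14) higher and Rfc5 (-1.29), Rrm2 (-1.12), Mcm10 (-1.01) and Gmnn (just past 2-fold) lower, against 4.67% of all genes higher and 13.6% lower, in a comparison where the median of all genes was -0.42 and 25.6% of calls were higher, against 66.6% after scaling. Gins3 was not called without ES_Empty replicate 2 (0.99, adjusted p = 0.0556), nor when the other ES_Obox3 library than replicate 1 was left out (0.85, adjusted p = 0.0441). Orc6 was not called on upper-quartile scaling (0.96).

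The ES_Obox5 libraries showed the same leading pair. Cdc6 was at 31.5 and 27.8 scaled TPM in ES_Obox5, and Pold3 at 54.1 and 53.6, all above the controls given above. Cdc6 rose by 1.47 (SE 0.11, adjusted p = 0.000168) and Pold3 by 1.66 (SE 0.09, adjusted p = 5.73e-05). These were 2 of 45 members called higher (4.44%), against 6.48% of all genes, and 0 were called lower, against 2.5%. As deposited, Cdc6 (1.16) and Pold3 (1.34) were again called higher, against 4.79% of all genes, and Rfc5 (-1.15) lower, against 5.47%.

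Without a minimum fold, 8 members were higher in ES_Obox5 (17.8%, against 11.4% of all genes) and 2 lower (4.44%, against 6.93%). Besides the pair, the higher ones were Gins3 (0.98, SE 0.21, adjusted p = 0.0179), Orc6 (0.87, SE 0.16, adjusted p = 0.00855), Cdc45 (0.67, SE 0.10, adjusted p = 0.00463), Rfc1 (0.47, adjusted p = 0.0213), Pold1 (0.46, adjusted p = 0.0133) and Tyms (0.37, adjusted p = 0.0462). Gins3 was at 13.7 and 11.1 scaled TPM, Orc6 at 43.4 and 44.6, and Cdc45 at 20.9 and 21.0. The lower ones were Rfc5, at 18.1 and 17.9 scaled TPM (-0.82, SE 0.09, adjusted p = 0.00091), and Rrm2 (-0.31, SE 0.08, adjusted p = 0.0387). Both comparisons share the ES_Empty libraries, so that their likeness was not tested. Gins3 was also called (1.12, adjusted p = 0.0471) when the other ES_Obox5 library than replicate 1 was left out.

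Other members differed little between ES_Obox5 and ES_Empty. The next lowest after Rfc5 were Gins2 (-0.53, adjusted p = 0.0876) and Rpa3 (-0.42, adjusted p = 0.137), neither past the test. Mcm2 (0.20, adjusted p = 0.107), Mcm5 (-0.10), Mcm6 (0.08), Orc1 (0.34, adjusted p = 0.202), Cdt1 (-0.03), Gmnn (-0.15), Pcna (-0.28) and Tk1 (0.38, adjusted p = 0.152) did not pass either. The median over members was 0.05, against 0.02 over all genes. With TPM as deposited the median of all genes was -0.20, and the share of calls that were higher was 46.6%, against 72.2% after scaling.

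In ES_Obox6 Pold3 and Rfc5 were the only members past the adjusted p, and Cdc6 was not. Cdc6 was at 8.94 and 8.01 scaled TPM, both below the controls (-0.23, SE 0.11, adjusted p = 0.261), and Cdc45 was at 13.5 and 13.2. Pold3 stood at 27.8 and 26.5 scaled TPM, above both controls, and Rfc5 at 16.6 and 16.8, below both. No member reached the 2-fold call by limma in either direction, where 3.37% of all genes were called higher and 1.21% lower, and 9 of 45 members had an unadjusted p under 0.05, as did 23% of all genes.

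Past the adjusted p alone were Pold3, higher by 0.70 (SE 0.09, adjusted p = 0.00446), and Rfc5, lower by 0.93 on the log2 scale (SE 0.09, adjusted p = 0.00119), where 6.19% and 3.38% of all genes passed. Rfc5 was called lower, at -1.17, with TPM as deposited, as were 1.99% of all genes, with 0 members higher against 2.39%, and again on upper-quartile scaling. The next differences were Orc4 (0.40, adjusted p = 0.391) and Gins3 (0.25, adjusted p = 0.56) on the higher side, and Pold2 (-0.55, adjusted p = 0.0857) and Rpa3 (-0.41, adjusted p = 0.195) on the lower side. Mcm2 (-0.15), Mcm5 (-0.08), Mcm6 (-0.10), Orc1 (0.16), Cdt1 (-0.31, adjusted p = 0.109), Gmnn (-0.32, adjusted p = 0.268), Pcna (-0.30), Rrm2 (0.01), Tyms (0.16) and Tk1 (0.10) did not pass. As deposited, 54.5% of the calls over all genes were higher, against 73.5% after scaling.

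**Figure D3:**
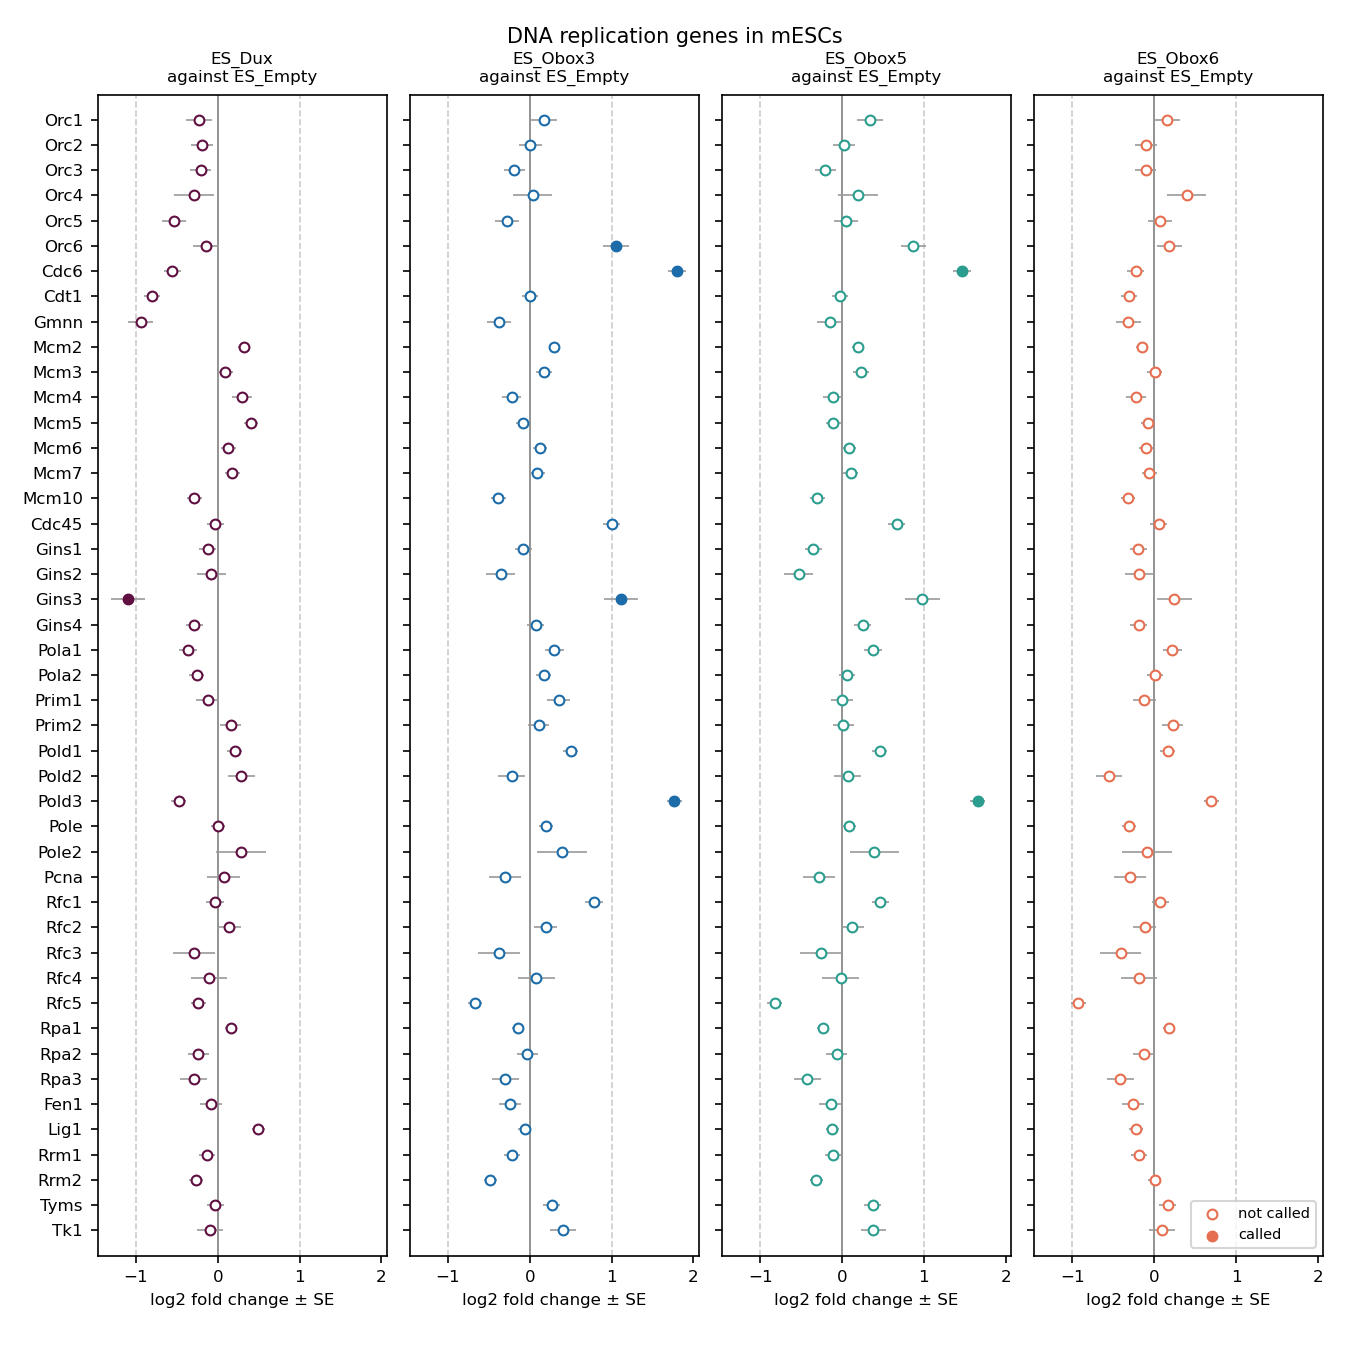
Log2 fold change with its SE of all 45 members, ordered by role, in 4 comparisons with ES_Empty; filled points were called and dashed lines mark a 2-fold change. Filled points are Gins3 in ES_Dux, Cdc6, Pold3, Orc6 and Gins3 in ES_Obox3, and Cdc6 and Pold3 in ES_Obox5.

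Dux, the transcription factor that drives the 2-cell gene programme, went with a different set. The licensing factors Cdt1 and Cdc6 and the inhibitor Gmnn were all lower in ES_Dux: Cdt1 was at 28.0 and 26.6 scaled TPM against 46.3 and 50.3 in ES_Empty, Gmnn at 16.4 and 22.2 against 41.0 and 34.6, and Cdc6 at 6.72 and 6.38 against 10.5 and 9.65. None of these pairs overlapped, where 17 of 45 members lay lower in this way and 9 higher. The share over all genes is not given, so this is no support by itself. Cdt1 was lower by 0.80 (SE 0.10, adjusted p = 0.00168), Gmnn by 0.94 (SE 0.15, adjusted p = 0.00489) and Cdc6 by 0.55 (SE 0.11, adjusted p = 0.01), each past the adjusted p and short of 2-fold. Gins3 was the only member called, falling from 6.34 and 5.23 scaled TPM to 1.80 and 2.56 (-1.10, SE 0.21, adjusted p = 0.0101).

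That is 1 of 45 members called lower (2.22%), against 2.48% of all genes, and 0 called higher, against 7.17%. Without a minimum fold 6 were lower (13.3%) and 3 higher (6.67%), against 10.1% and 12.5% of all genes. The others lower were Orc5 (-0.53, SE 0.15, adjusted p = 0.0406) and Pold3 (-0.48, SE 0.09, adjusted p = 0.0106). The 3 higher were Lig1, which joins the fragments of the lagging strand (0.50, SE 0.08, adjusted p = 0.00525), Mcm5 (0.41, SE 0.09, adjusted p = 0.0151) and Mcm2 (0.32, SE 0.07, adjusted p = 0.0194). Lig1 was at 89.7 and 84.0 scaled TPM in ES_Dux against 64.1 and 58.5 in ES_Empty.

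The directions of the higher members rest on the scaling. Cdt1, Gmnn, Cdc6, Gins3, Orc5 and Pold3 were lower on both scales. The median of all genes was 0.92 lower as deposited than after scaling. A member below 0 after scaling was therefore bound to be below 0 as deposited, which gives no separate support. All 14 members above 0 after scaling were below 0 as deposited. With TPM as deposited, 43 of 45 members were called lower and 0 of 6 MCM subunits lay above 0, against 6 of 6 after scaling, while 44.4% of all genes were called lower and 4.12% higher. The median of all genes was -0.97 there, and 8.49% of calls were higher, against 74.3% after scaling. On that scale Cdt1 (-2.18), Gmnn (-2.29) and Gins3 (-2.03) were the lowest of the 45, and Lig1 (-0.92), Pole2 (-0.96) and Mcm5 (-1.01) the highest. The other members with values were Mcm6 (0.13), Pcna (0.07), Tyms (-0.03), Cdc45 (-0.03), Tk1 (-0.09), Orc1 (-0.23) and Rrm2 (-0.27, adjusted p = 0.0583) after scaling, none past the test. Gins3 was not called without ES_Dux replicate 1 (-0.93, adjusted p = 0.0551), nor without ES_Empty replicate 1 (-0.98, adjusted p = 0.0604), and no other member was called in their place. Gmnn was called as well without ES_Empty replicate 2 or without the other ES_Dux library.

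Set directly against ES_Obox3, the ES_Dux libraries had 5 members called lower. Called lower were Cdc6 (-2.35, SE 0.11, adjusted p = 1.1e-05), Pold3 (-2.24, SE 0.09, adjusted p = 8.12e-06), Gins3 (-2.21, SE 0.21, adjusted p = 0.000241), Orc6 (-1.20, SE 0.16, adjusted p = 0.00104) and Cdc45 (-1.03, SE 0.10, adjusted p = 0.000315). They were 5 of 45 members (11.1%), a share close to the 9.79% of all genes, and 0 were called higher, against 8.56%. Of Mcm2 to Mcm7, 5 of 6 lay above 0 after scaling and 0 of 6 with TPM as deposited. In ES_Dux Pold3 was at 12.4 and 10.6 scaled TPM, Orc6 at 18.0 and 25.0 and Cdc45 at 12.1 and 12.9. For each of the 5 genes both ES_Dux libraries lay below both ES_Obox3 libraries, as for 19 of 45 members, while 10 lay above. This separation too is given without the share over all genes and is no support by itself. Without a minimum fold 14 members were lower (31.1%, against 18.7% of all genes) and 6 higher (13.3%, against 17.1%).

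The licensing factors Cdc6 and Cdt1 and the inhibitor Gmnn were among the 14 lower in ES_Dux than in ES_Obox3, with Cdt1 at -0.80 (adjusted p = 0.00082) and Gmnn at -0.57 (adjusted p = 0.0234). Polymerase alpha and primase subunits were there too, with Pola1 at -0.66 (adjusted p = 0.00378), Pola2 at -0.43 (adjusted p = 0.0112) and Prim1 at -0.47 (adjusted p = 0.0343). The largest on the higher side were Lig1 (0.56, SE 0.08, adjusted p = 0.00162), Mcm4 (0.52, SE 0.12, adjusted p = 0.0131) and Pold2 (0.51, SE 0.16, adjusted p = 0.0472), with Mcm5 at 0.49 (adjusted p = 0.00419). Mcm2 (0.02), Mcm6 (0.01), Pcna (0.38, adjusted p = 0.183), Rrm2 (0.22, adjusted p = 0.0794), Orc1 (-0.40, adjusted p = 0.0887) and Tyms (-0.30, adjusted p = 0.06) did not pass, and Tk1 was lower (-0.50, adjusted p = 0.0442). Without ES_Dux replicate 1 the calls were Cdc6, Gins3 and Pold3 alone, with Orc6 at -0.97 and Cdc45 at -0.99. As deposited 15 members were called lower, against 20.3% of all genes, and 0 higher, against 3.42%, and 14.4% of all calls were higher, against 46.7% after scaling.

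The 9 single mESC libraries have no replicate, so each is given as a difference from the mean of ES_Empty with no test. Only ES_Obox8 had a member past 2-fold: Cdc6 was at 22.6 scaled TPM there, between the ES_Empty and ES_Obox5 libraries, a difference of 1.09. That was 1 of 45 members higher, where 5.24% of all genes were past 2-fold higher and 2.9% lower. Pold3 was also highest among the single libraries in ES_Obox8, at 29.2 scaled TPM, as were Tk1 at 13.0 and Rrm2 at 106, while Rfc5 at 22.9 was the lowest. That library also stood apart in markers: its 6 mESC markers summed to 687 TPM, against 986 to 1364 TPM in the other 8, and its 4 primitive endoderm markers to 5.18 TPM, against 0.493 to 2.21 TPM. Their part in the Cdc6 level was not tested. In the other 8 no member was past 2-fold in either direction, where 2.41% (ES_Obox1) to 5.86% (ES_Crxos3) of all genes were past 2-fold higher and 1.56% (ES_Crxos3) to 3.49% (ES_Obox4ps35) lower, with 2.91% and 2.19% in ES_Crxos1. Cdc6 lay between 8.59 and 11.4 scaled TPM in those 8, and Pold3 between 11.8 and 21.6, highest in ES_Obox1.

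Genes outside the 45 were followed through lists of 39 other replication factors, 36 regulators of the G1 to S transition and 14 chromatin factors that act at the fork. Among the other replication factors Mcm9, a helicase of the MCM family that acts in repair, rose in ES_Dux (1.18), ES_Obox3 (1.24) and ES_Obox5 (1.19), with group means of 7.15, 7.45 and 7.18 scaled TPM against 2.59 in ES_Empty. Dscc1, part of an alternative clamp loader, rose in ES_Obox3 (1.09, adjusted p = 0.014) and ES_Obox5 (1.05, adjusted p = 0.0208). No other gene of that list was called in these comparisons or in ES_Obox6. None of the 14 chromatin factors was called against ES_Empty.

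Regulators moved on both sides. In ES_Obox3 the kinase gene Cdk2 (1.24), the cyclin gene Ccnd3 (1.08) and Skp2 (1.26), a ubiquitin ligase subunit, rose, and Myc (-2.10), Cdk6 (-1.80), E2f8 (-1.23) and E2f2 (-1.15) fell, 3 and 4 of 35 tested. ES_Obox5 had Skp2 (1.20) higher and Myc (-1.86), Cdk6 (-1.64), Mycn (-1.28) and E2f2 (-1.02) lower. In ES_Obox6 Ccnd1 (1.13) rose and Mycn (-1.48) and Myc (-1.17) fell, and in ES_Dux E2f8 (-1.01) was the only regulator called. Between ES_Dux and ES_Obox3, 6 of 39 other replication factors were lower and 0 higher, led by Dscc1 (9.43 scaled TPM in ES_Obox3 and 2.74 in ES_Dux), Ticrr (-1.49), which helps load Cdc45, and Top2a (-1.47). In the same comparison 5 of 35 regulators were lower, led by Cdk2 (-1.83), Skp2 (-1.46) and Lin54 (-1.31), and 2 higher, Cdk6 (1.24) and Myc (1.19), while the chromatin factor Chaf1a (-1.08) was lower and Uhrf1 (1.07) higher. Over all genes 9.79% were called lower and 8.56% higher between ES_Dux and ES_Obox3. The higher calls of these lists against ES_Empty (Mcm9, Dscc1, Cdk2, Ccnd3, Skp2 and Ccnd1) were all lost with TPM as deposited. E2f8 in ES_Dux, E2f2 in ES_Obox3 and ES_Obox5, Myc in ES_Obox6, Dscc1 in ES_Obox3 and ES_Obox5 and, between ES_Dux and ES_Obox3, Lin54, Chaf1a and Myc were not called in at least 1 fit that left out a library of their comparison.

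In cloned embryos injected with EGFP mRNA, 4 of 9 polymerase and primase genes, Lig1 of the 2 lagging strand genes and Rpa1 were called higher than in sperm-injected embryos, and Gmnn and Mcm4 lower. The 4 include Pold1, which was under the filter in both ICSI_L2C libraries and is given as a description only. Lig1 was at 3.25 and 2.32 scaled TPM in ICSI_L2C and at 16.8 and 16.9 in SCNT_EGFP_L2C, at chr7:13277175-13311426, a rise of 2.25 (SE 0.32, adjusted p = 0.00824). Gmnn was at 173 and 168 scaled TPM in ICSI_L2C and at 50.9 and 65.2 in SCNT_EGFP_L2C, at chr13:24751845-24761937, a difference of -1.55 (SE 0.15, adjusted p = 0.0038). Mcm4, 1 subunit of the ring, was at 64.9 and 45.8 against 21.4 and 20.1 (-1.35, SE 0.26, adjusted p = 0.0188). For each of these genes both cloned libraries stood apart from both sperm-injected ones, as for 22 of 45 members on the higher side and 11 on the lower. With no share over all genes given, such separation is no support by itself.

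**Figure D4:**
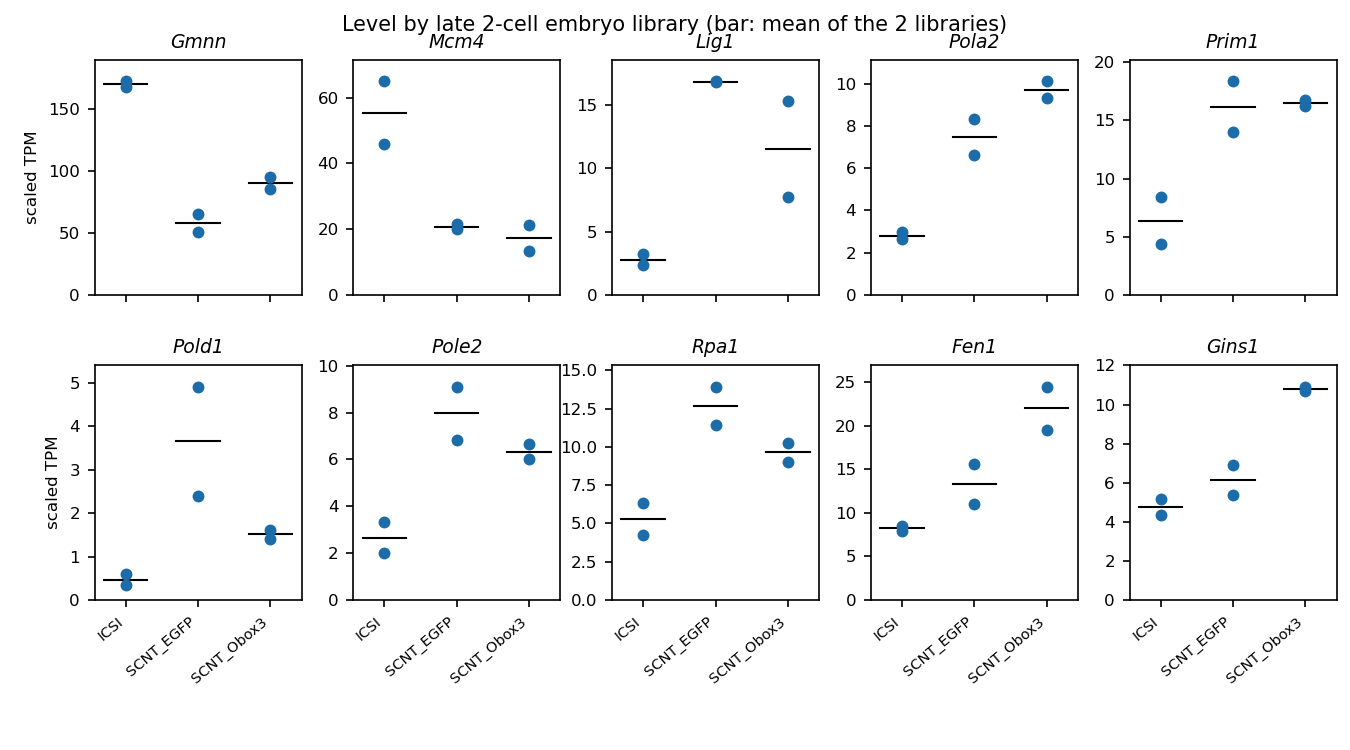
Scaled TPM of 10 members in each late 2-cell embryo library, with a bar at the mean of the 2 libraries of a group. Gmnn and Mcm4 are highest in ICSI_L2C, and the other 8 genes are lowest there.

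Genes of polymerases alpha and epsilon were called, and the only called gene of polymerase delta was Pold1. Pold1 went from 0.592 and 0.335 scaled TPM in ICSI_L2C to 4.91 and 2.39 in SCNT_EGFP_L2C (1.62, SE 0.33, adjusted p = 0.0216). Both ICSI_L2C libraries were under the filter of 1 TPM for Pold1, at 0.638 and 0.407 TPM as deposited, so it entered the test only through the cloned libraries, and it was not called without that filter. Its call is given as a description only. Pola2, the regulatory subunit of polymerase alpha, went from 2.98 and 2.63 to 6.60 and 8.32 (1.15, SE 0.19, adjusted p = 0.0117), and Prim1, the catalytic primase, from 8.39 and 4.37 to 18.4 and 14.0 (1.26, SE 0.29, adjusted p = 0.0304). Pole2, a subunit of polymerase epsilon, went from 2.01 and 3.32 to 9.11 and 6.83 (1.30, SE 0.25, adjusted p = 0.0186). The polymerase and primase genes were above 0 in 9 of 9 after scaling and in 7 of 9 as deposited. Rpa1, the large subunit of RPA, went from 6.35 and 4.26 to 13.9 and 11.4 (1.13, SE 0.22, adjusted p = 0.0192).

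These made 6 of 45 members called higher (13.3%), against 6.93% of 18252 genes tested, and 2 of 45 called lower (4.44%), against 7.86%. Pold1 is among the 6 and entered the test only through the cloned libraries. The 13.3% is therefore a description, and 5 members called higher are left without Pold1. Without a minimum fold 10 were higher (22.2%, against 9.99% of all genes), Pold1 again among them, and 3 lower (6.67%, against 12.7%). The further ones were Rfc4 (0.98, adjusted p = 0.0457), Rrm1 (0.93, adjusted p = 0.0387), Rfc1 (0.57, adjusted p = 0.0248) and Pola1 (0.54, adjusted p = 0.0333) on the higher side and Gins3 (-0.71, SE 0.17, adjusted p = 0.0319) on the lower. Cdt1, at 88.1 and 57.2 scaled TPM in ICSI_L2C and 36.3 and 34.9 in SCNT_EGFP_L2C, missed the threshold (-0.98, SE 0.27, adjusted p = 0.0501). The median over members was 0.23, against 0.04 over all genes.

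The ring and the origin complex otherwise showed no call. Differences in SCNT_EGFP_L2C were -0.25 for Mcm2, 0.35 for Mcm5, -0.10 for Mcm6, -0.33 for Orc1 and -0.18 for Cdc6, with adjusted p from 0.225 to 0.714. Cdc45 (-0.32, adjusted p = 0.113), Pcna (-0.22), Rrm2 (-0.08), Tyms (0.18) and Tk1 (0.26) did not pass either, and Tyms had the lowest mean of all members in SCNT_EGFP_L2C. With TPM as deposited, Lig1, Pold1 and Pole2 remained called higher, Gmnn, Mcm4, Cdt1 (-1.27) and Gins2 (-1.04) were called lower, and Pola2 (0.91), Prim1 (1.00) and Rpa1 (0.87) were not called, where 4.8% of all genes were called higher and 12.5% lower. There the median of all genes was -0.20 and 27.7% of calls were higher, against 46.8% after scaling. Leaving out 1 library left between 2 and 7 calls, and the share of all genes called fell too, from 14.8%. Without SCNT_EGFP_L2C replicate 1 Gmnn and Pola2 were called (5.94% of all genes), with Lig1 at an adjusted p of 0.0566, and without its replicate 2 Gmnn, Lig1, Pold1 and Pole2 (10.5%). Without ICSI_L2C replicate 1 or 2, 5 members were called (8.16% and 9.55%). Gmnn was called in every such fit. Prim1 was not called in 8 of 13 alternatives, among them the fit with no filter on low values.

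As deposited, sums of oocyte and 2-cell markers also differed between these groups. The summed TPM of 4 oocyte markers with a value was 469 to 541 in ICSI_L2C, 355 to 384 in SCNT_EGFP_L2C and 298 to 300.4 in SCNT_Obox3_L2C, and the 6 markers of 2-cell embryos summed to 383 to 560, 113 to 155 and 163 to 240.1 TPM. Oosp1 had a mean of 57.08 TPM in SCNT_EGFP_L2C against 193.5 TPM in ICSI_L2C. Zp3 and Gdf9 were also lower, while Bmp15 went the other way, at 222.6 against 194.1 TPM. The factors were 0.8681 and 0.9925 in SCNT_EGFP_L2C and 1.078 and 1.215 in ICSI_L2C. Once divided by them, the oocyte sums of these 2 groups overlap. The part of stored oocyte RNA and of embryonic transcription in the member levels was not tested.

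**Figure D5:**
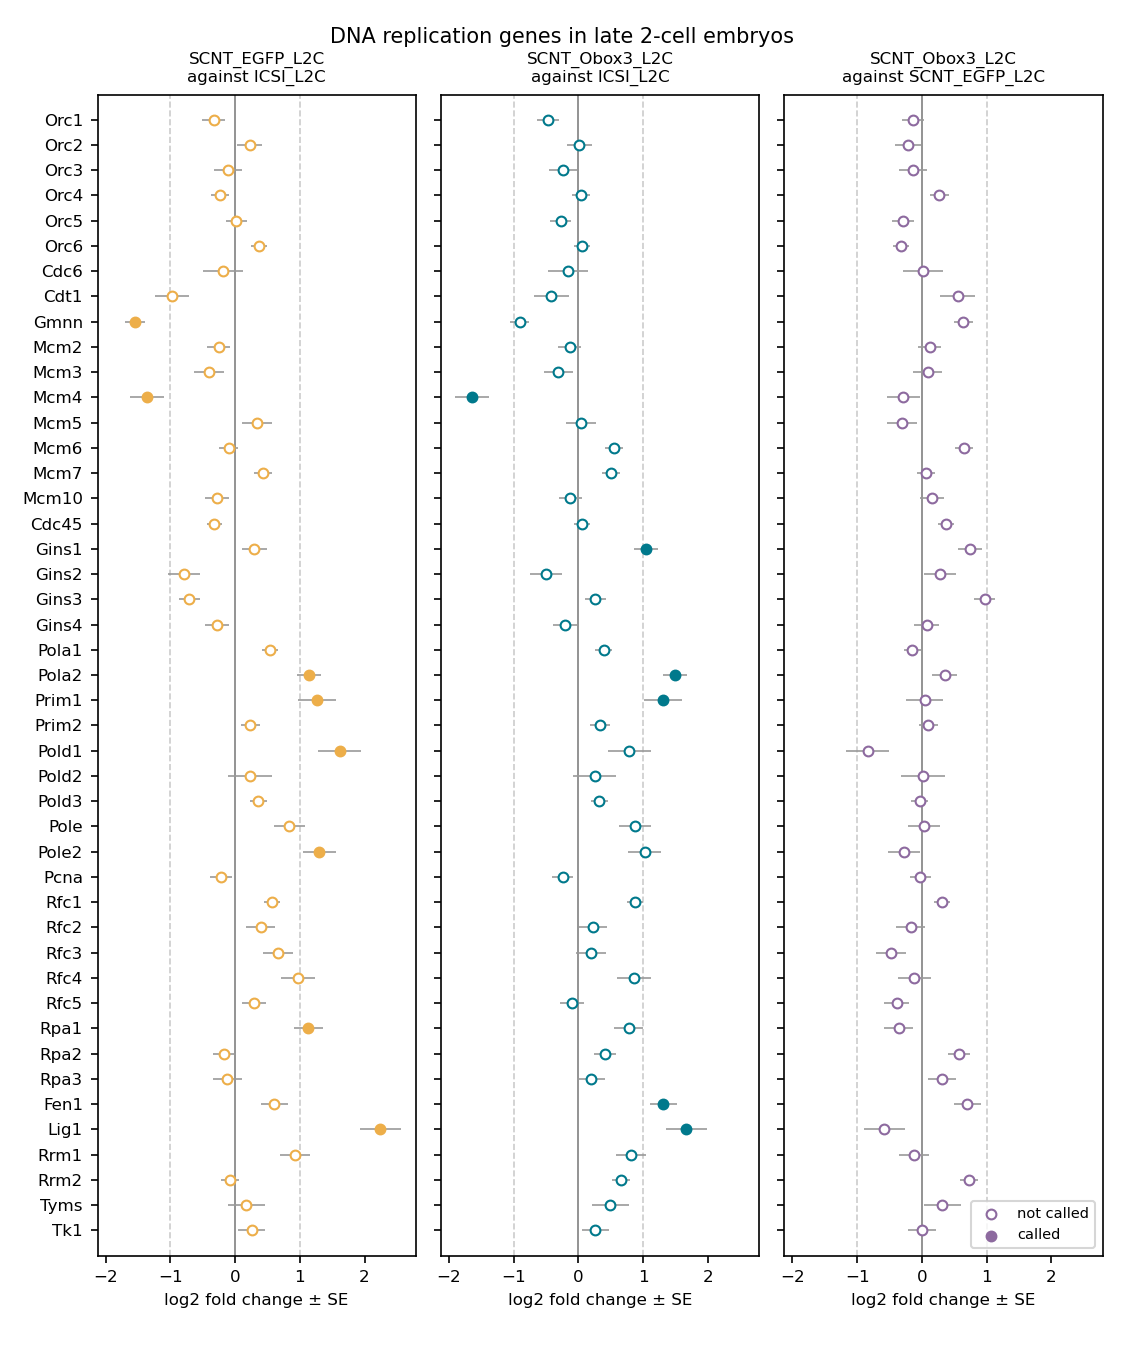
Log2 fold change with its SE of all 45 members in 3 comparisons of late 2-cell embryos; filled points were called and dashed lines mark a 2-fold change. Lig1, Pola2 and Prim1 are filled on the right and Mcm4 on the left in both comparisons with ICSI_L2C, and no point is filled between the cloned groups.

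Cloned embryos injected with Obox3 mRNA differed from the sperm-injected embryos in 6 called members, Lig1, Fen1, Pola2, Prim1 and Gins1 on the higher side and Mcm4 on the lower. Lig1 was at 7.72 and 15.3 scaled TPM in SCNT_Obox3_L2C, above both ICSI_L2C libraries but far apart from each other (1.67, SE 0.32, adjusted p = 0.0296). Fen1, which trims the flaps that Lig1 then seals, went from 8.52 and 7.96 in ICSI_L2C to 19.5 and 24.5 (1.31, SE 0.21, adjusted p = 0.0197). Pola2 was at 9.33 and 10.1 scaled TPM (1.50, SE 0.19, adjusted p = 0.0112), Prim1 at 16.2 and 16.8 (1.30, SE 0.29, adjusted p = 0.044) and Gins1 at 10.7 and 10.9 against 4.37 and 5.15 (1.04, SE 0.19, adjusted p = 0.0252). Mcm4, at 13.3 and 21.2, was the only member called lower (-1.64, SE 0.26, adjusted p = 0.0196).

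The count was 5 of 45 members higher (11.1%), against 4.16% of all genes, and 1 of 45 lower (2.22%), against 3.64%. Without a minimum fold 7 were higher (15.6%, against 5.66%) and 2 lower (4.44%, against 5.45%), which added Rfc1 (0.88, SE 0.12, adjusted p = 0.0141) and Rrm2 (0.65, SE 0.14, adjusted p = 0.0406) on the higher side and Gmnn on the lower. Gmnn was at 95.3 and 85.6 scaled TPM (-0.91, SE 0.15, adjusted p = 0.0212), between the levels of the other embryo groups, and was called as deposited (-1.19). The next lowest after Mcm4 and Gmnn was Gins2 (-0.51, adjusted p = 0.246). Mcm2 (-0.13), Mcm5 (0.03), Mcm6 (0.55, adjusted p = 0.0665), Orc1 (-0.47, adjusted p = 0.146), Cdc6 (-0.17), Cdt1 (-0.42), Cdc45 (0.05), Pcna (-0.25), Tyms (0.49) and Tk1 (0.26) did not pass. As deposited the median of all genes was -0.22 and 30.7% of calls were higher, against 53.3% after scaling. There 3 members were called higher and 2 lower, against 2.8% and 6.31% of all genes, and Fen1 and Gins1 were not called. Calls fell among members and among all genes when a library was left out. Prim1 alone was called without ICSI_L2C replicate 1 (1.67% of all genes, against 7.8% with every library), Mcm4 alone without ICSI_L2C replicate 2 (3.47%), Lig1 alone without SCNT_Obox3_L2C replicate 1 (2.17%) and no member without its replicate 2 (0.0225%). Lig1 was not called in 8 of 13 alternatives and Prim1 in 7 of 13.

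Between the cloned groups, which differ in the injected mRNA, no member was called by limma, nor did any pass the adjusted p alone. Over all genes 1.05% were called higher with Obox3 and 0.164% lower, and these were 192 and 30 genes. As deposited 20 genes (0.11%) and 8 genes (0.0438%) were called, again with no member among them. An unadjusted p under 0.05 was found for 10 of 45 members and for 21.6% of all genes. The largest differences were Gins3 (0.97, 95% interval 0.56 to 1.37, adjusted p = 0.0555), at 27.3 and 22.1 scaled TPM with Obox3 against 11.1 and 13.2 with EGFP, then Gins1 (0.74, adjusted p = 0.104) and Rrm2 (0.73, 0.38 to 1.08, adjusted p = 0.0676), at 67.5 and 56.3 against 36.1 and 37.5. Both Obox3 libraries lay above both EGFP libraries for each of these genes. The same held for 16 of 45 members, and 11 lay below in both, so this separation is no support by itself.

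Mcm6 (0.65, adjusted p = 0.0825) and Gmnn (0.64, 0.27 to 1.01, adjusted p = 0.0907) followed, Gmnn at 95.3 and 85.6 scaled TPM against 50.9 and 65.2. The lowest were Pold1 (-0.84, adjusted p = 0.221), Lig1 (-0.58, adjusted p = 0.348) and Rfc3 (-0.48, adjusted p = 0.296). Intervals that include 0 belonged to Cdc6 (0.01, -0.75 to 0.78), Cdt1 (0.55, -0.11 to 1.21), Mcm2 (0.12), Mcm5 (-0.31), Orc1 (-0.14), Pcna (-0.03), Tyms (0.31) and Tk1 (0.00, -0.51 to 0.52), whereas that of Cdc45 (0.37, 0.07 to 0.67, adjusted p = 0.162) did not. A p above the threshold does not show that the groups are alike. Cdc6 in the embryos, with 9.65 and 18.3 scaled TPM in SCNT_Obox3_L2C against 12.7 and 13.7 in SCNT_EGFP_L2C, gave no counterpart in value to the mESC difference, and the 2 settings were not compared by a test.

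In the lists outside the 45, SCNT_EGFP_L2C had 4 of 36 other replication factors higher than ICSI_L2C, led by Stn1 (1.27), Dtymk (1.23), a kinase of thymidylate, and Wdhd1 (1.09), a fork protein, and 3 lower, Dut (-1.54), which removes dUTP, Mcmbp (-1.31), which binds MCM subunits, and Lrwd1 (-1.30), an ORC partner. Regulators had 5 of 33 higher, led by Mycn (2.33), E2f8 (1.66) and E2f6 (1.44), and 4 lower, among them E2f7 (-1.16), Dtl (-1.14), which helps destroy Cdt1, and the S phase cyclin gene Ccne1 (-1.12). Ccne1 had a mean of 177 scaled TPM in SCNT_EGFP_L2C and 386 in ICSI_L2C. Of the 14 chromatin factors Chaf1b (1.08) was called. In this comparison 6.93% of all genes were called higher and 7.86% lower.

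With Obox3 mRNA, Dtymk (1.56), Stn1 (1.18) and the topoisomerase gene Top2a (1.12) were higher than in ICSI_L2C and Dut (-1.46) and Chtf18 (-1.25), of the same alternative clamp loader as Dscc1, lower. The regulators Cdk4 (1.47) and Cdkn1a (1.39) were higher and E2f7 (-1.33) was lower. No gene of these lists was called between the cloned groups. Of the embryo calls named from these lists, those of E2f8, Dut, Mcmbp and Ccne1 in SCNT_EGFP_L2C were made whichever library was left out, and each of the others was lost in at least 1 such fit.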

How the data were processed

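Total RNA was sequenced with a stranded SMART-seq kit, per the labels' protocols, and the authors deposited 1 table of TPM (transcript abundance relative to a fixed total) for mESCs and 1 for embryos. The submitters' processing notes name Trim Galore, HISAT2, featureCounts 1.6.5 and mm10 among the tools and builds of the series. The TPM formula, the strand counted and the time after transfection were not given in the sources used here. No read counts were used, so depth is known only through the smallest steps of the values: 1 read on a gene of 1 kb was worth 0.136 to 0.441 TPM in mESC and 0.0718 to 0.198 TPM in embryo libraries. Of 88 samples in the series 25 were analysed, and 63 were not analysed here. For mESCs, 1 column each of ES_Dux, ES_Obox3 and ES_Obox5 carries replicate number 3, which no sample label of these groups has; these 3 libraries were used as members of their group and are called unnumbered.

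Deposited TPM was scaled by median ratios, and limma 3.58.1 (R 4.3.3, statmod 1.5.0, with trend and robust moderation) was fitted to log2(scaled TPM + 1) over genes at 1 TPM or more in at least 2 libraries, with all groups of 2 libraries of a table in 1 fit. This left 20355 genes and 5 residual degrees of freedom for mESCs, and 18252 genes and 3 for embryos. The pseudocount understates changes of low genes. Calls used a Benjamini-Hochberg adjusted p under 0.05 over all genes tested and at least a 2-fold change, and every p in the text is from limma. Scripts were tested on simulated data. Between replicates no values were identical over all genes, and deviations of same-numbered libraries showed little correlation.

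Named were every member called, the 3 largest increases and decreases in each comparison, and Mcm2, Mcm5, Mcm6, Orc1, Cdc6, Cdt1, Gmnn, Cdc45, Pcna, Rrm2, Tyms and Tk1 throughout. Of the further lists, called genes were named, or the 3 largest in each direction where more than 6 were called, and the others named were chosen after their values were seen. Members and lists were chosen with earlier results of these data known. Alternatives were TPM as deposited, upper-quartile scaling, a pseudocount of 0.1, no filter, no minimum fold, only the 2 groups compared, each library left out, a replicate block and, chosen after seeing the data, leaving out the 3 unnumbered libraries and a block by the numbers in the column names for ES_Dux against ES_Obox3.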

Additional observations from a re-analysis of the deposited data

How the results depend on the processing

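With TPM as deposited, 43 members were called in ES_Dux against ES_Empty (1 after scaling) and 1 in ES_Obox6 (0 after scaling), and 15 between ES_Dux and ES_Obox3 (5 after scaling). In ES_Dux it turned all 14 members above 0 below it, among them Lig1 to -0.92 (adjusted p = 0.00794), Mcm2 to -1.10 (adjusted p = 0.00185), Mcm5 to -1.01 (adjusted p = 0.00205), Mcm6 to -1.29 (adjusted p = 0.0018) and Pcna to -1.34 (adjusted p = 0.00781). Upper-quartile scaling also gave 1 call in ES_Obox6. With no minimum fold 9, 11, 10 and 2 members passed in ES_Dux, ES_Obox3, ES_Obox5 and ES_Obox6 (22.6, 24.7, 18.3 and 9.57% of all genes), then 20 between ES_Dux and ES_Obox3 (35.8%) and 13 between SCNT_EGFP_L2C and ICSI_L2C (22.7%). Without the filter on low values 1 member was called between SCNT_Obox3_L2C and ICSI_L2C, against 6, while 1.97% of all genes were called, against 7.8%. The same setting lost Pold1 and Prim1 between SCNT_EGFP_L2C and ICSI_L2C, where 5.52% of all genes were called, against 14.8%. Apart from the scaling and the fold, the cause of these moves was not tested.

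Leaving out 1 library gave 0 to 2 calls in ES_Dux (7.18 to 9.87% of all genes), 4 in each fit of ES_Obox3 (10.2 to 13.1%), with Cdc45 in place of Gins3 in 2 of them, and 2 to 3 in ES_Obox5 (6.87 to 9.47%). It gave 3 to 5 between ES_Dux and ES_Obox3 (16.2 to 18.9%), 2 to 7 between SCNT_EGFP_L2C and ICSI_L2C (5.94 to 14.2%) and 0 to 4 between SCNT_Obox3_L2C and ICSI_L2C (0.0225 to 6.72%). Without the 3 unnumbered libraries 2 members were called in ES_Dux (4.98% of all genes). Over all genes, the 192 higher and 30 lower between the cloned groups became 0 and 0 without the filter, with only the 2 groups compared, under the replicate block and without any 1 library, 20 and 8 as deposited, and 30 and 9 on upper-quartile scaling. The 836 lower in ES_Obox3 became 2770 as deposited, the 509 in ES_Obox5 became 1114 and the 247 in ES_Obox6 became 406.

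Deviations of same-numbered libraries correlated at 0.0031 to 0.0574, and at -0.0119 between ES_Dux and ES_Obox3 by the numbers in the column names. With 2 libraries in a group, such values cannot exclude a shared batch that affects some genes. The replicate block gave 0 member calls in ES_Obox6 (1 gene of all, against 686 higher and 247 lower), 8 between SCNT_EGFP_L2C and ICSI_L2C, 0 between the cloned groups and 5 between SCNT_Obox3_L2C and ICSI_L2C, where Lig1 was lost (adjusted p = 0.0516). A block by the column numbers, chosen after seeing the data, kept all 5 calls between ES_Dux and ES_Obox3. No paired analysis was possible for ES_Dux, ES_Obox3 and ES_Obox5 against ES_Empty because these groups share only 1 replicate number with it.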
